A study of Mus musculus with 6 samples.

Results

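Axon guidance ligands and receptors were followed in the mouse corneal limbus, the ring of tissue between cornea and conjunctiva through which sensory nerves enter the cornea and in which corneal epithelial stem cells lie. The set was chosen by gene name from the deposited table and holds 69 protein-coding genes out of 39089 rows, of which 21770 are protein coding. It has 20 semaphorins, 9 plexins, 8 ephrins, 14 Eph receptors, 4 netrins, 5 netrin receptors, 3 Slits, 3 Robos, and Rgma, Rgmb and Neo1. One further row, Plxna4os1, matched by name but was not protein coding and was left out.

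The L-733,060 samples came from mice of genotype WT given L-733,060, a small molecule that blocks the neurokinin-1 (NK1) receptor for the neuropeptide substance P, by subconjunctival injection on days 0 and 3 (3 samples). The controls were WT mice given sterile water (3 samples), with no injection days stated for them. The limbus was collected after a week, and poly(A)-selected RNA was sequenced. Strain and age were not given, nor whether each sample was 1 mouse or a pool, so the p-values reflect variation among these samples alone, and that variation may be technical.

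Semaphorins are secreted or membrane-bound proteins read by plexins, and the secreted class 3 members mostly need a neuropilin as co-receptor. Ephrins are tethered to the cell surface and bind Eph receptor tyrosine kinases on the neighbouring cell, and both sides of the contact can signal. Netrins are read by Dcc, neogenin and Unc5 receptors, Slits by Robos, and RGM proteins by neogenin. These families are known as cues that attract or repel growing axons, and members of each family also act in tissues such as epithelia, vessels or the immune system; in the ocular surface EphA2 and ephrin-A1 have been studied at the border between limbal and corneal epithelium.

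Gene-level counts summed to between 18708288 and 21230942 in the L-733,060 samples and between 21870713 and 23541791 in the controls. The 69 genes together took 0.2015%, 0.2005% and 0.2787% of the counts in L-733,060 samples 1, 2 and 3, against 0.3042%, 0.2444% and 0.2809% in controls 1, 2 and 3. Levels below are TPM, transcript abundances scaled by gene length and library size. Fold changes are L-733,060 over control from edgeR's quasi-likelihood test on the counts, with its standard error (SE), and a gene was called at a Benjamini-Hochberg adjusted p below 0.05 over all 15712 genes tested.

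Of the 69 genes, 57 had enough counts to be tested. Called genes numbered 35 of 57, or 61.4%, against 41.3% of all genes tested and 42.9% of the 14010 protein-coding genes tested. Of these, 15 were higher with L-733,060 (26.3%, against 21.4% of all and 22.4% of protein-coding genes) and 20 were lower (35.1%, against 19.9% of all and 20.5% of protein-coding genes). Called and at least doubled were 9 of the 57, against 10.7% of all genes, and called and at least halved were 14, against 8.31% of all genes. Taking both directions, 19.0% of all genes were called and at least doubled or halved. The median log2 fold change of the 57 genes was -0.19, and that of all tested genes was -0.00164. In 33 of the 57 genes the TPM of the groups did not overlap, against 50.5% of all tested genes. The median log2 fold change of the set was -0.32 without L-733,060 sample 3, -0.10 without sample 1, -0.03 without sample 2 and -0.09 without control 1. Among the 33 tested ligands 7 were higher and 15 were lower, with a median log2 fold change of -0.44. Among the 24 tested receptors 8 were higher and 5 were lower, with a median of 0.08. The difference between ligands and receptors was not tested.

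**Figure D1:**
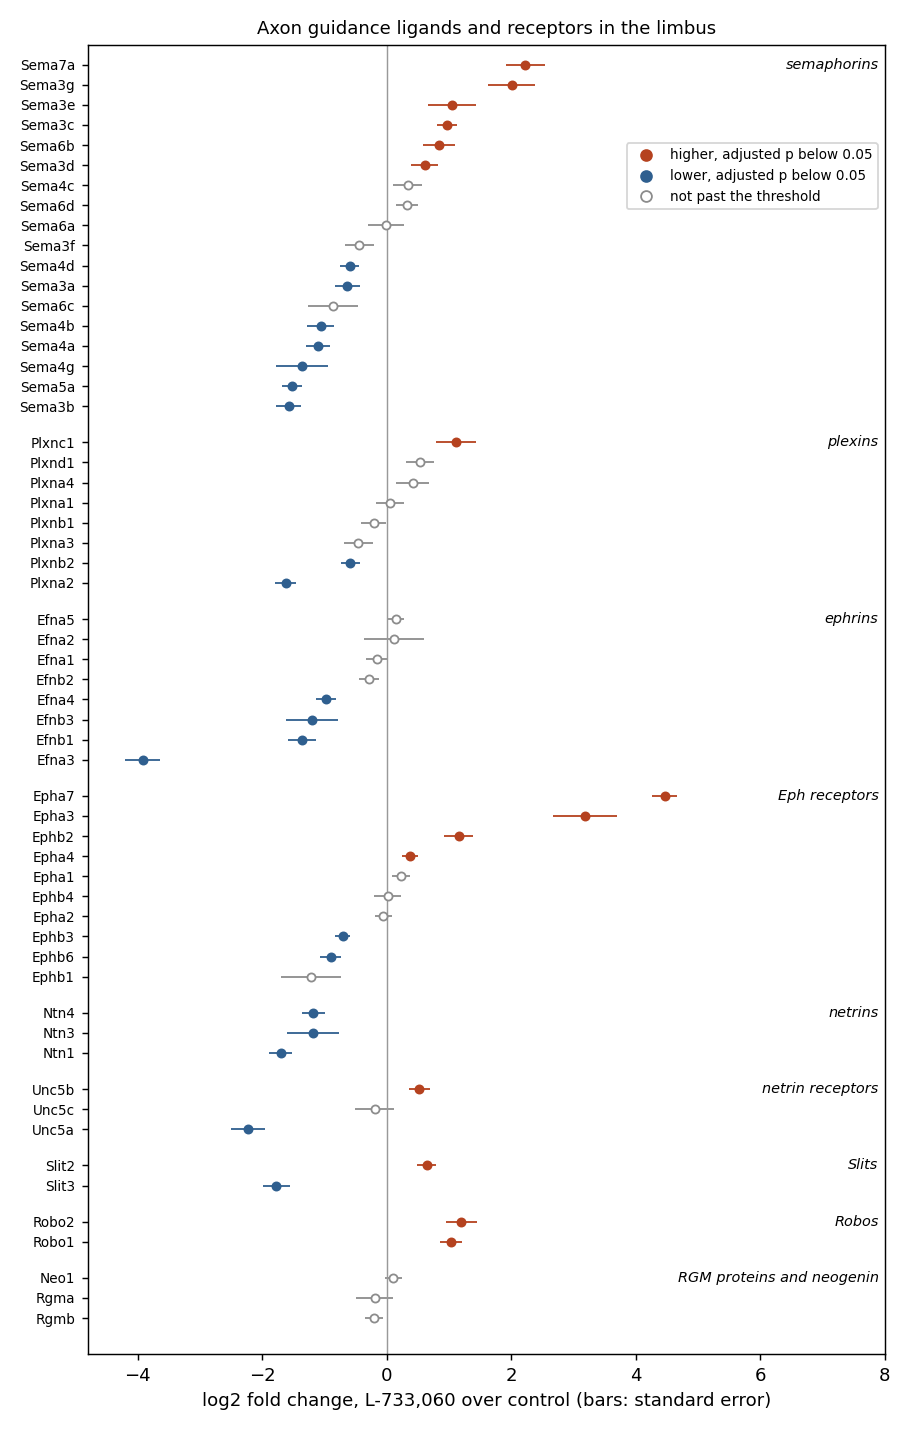
Fitted log2 fold change, L-733,060 over control, of the 57 tested axon guidance genes, with bars of 1 standard error, grouped by class; filled points are called genes. Epha7 has the highest value, 4.47, and Efna3 the lowest, -3.92; 15 called genes lie above 0 and 20 below.

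Of the L-733,060 samples, sample 3 had the group's highest TPM in 41 of the 57 tested genes of the set. Among the controls, sample 1 was highest in 30 of the 57 genes and sample 2 lowest in 38. The same counts were not made over all tested genes, so whether this order is particular to the set was not tested. Without L-733,060 sample 3, 12 of the 57 genes were called higher and 26 lower. Of all 16092 genes tested in that fit, 3722 were higher and 3788 lower. Without control 1, 9 of the 57 were higher and 19 lower, beside 2721 and 2393 of 16118. With all 6 samples the counts over all 15712 genes were 3367 and 3129. Results that change with a sample left out are marked below.

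Marker genes of several cell types also differed between the groups. Of all tested genes 41.3% were called, 21.4% higher and 19.9% lower. Macrophage markers were higher in 7 of 7, with a summed level of 486.5 to 534.6 TPM with L-733,060 and 101.5 to 115.4 TPM in controls. Neutrophil markers were higher in 4 of 4 tested, and their sum was 1043, 749 and 191.9 TPM in L-733,060 samples 1, 2 and 3, against 13.3 to 26.7 TPM in controls. S100a9 (mean 433.1 TPM with L-733,060) and S100a8 (216.1 TPM) made up most of that sum. Ly6g and Mpo had too few counts to test. The 5 conjunctival epithelial markers were all higher (28720 to 31630 TPM with L-733,060, 11720 to 13600 TPM in controls). Of the 5 corneal epithelial markers 4 were lower and 1 was higher (25850 to 33620 TPM with L-733,060, 43310 to 60580 TPM in controls). That sum joins large opposite differences. Krt14, the higher one, averaged 18830 TPM with L-733,060 and 2018 TPM in controls. Krt12 averaged 1775 TPM with L-733,060 and 21170 TPM in controls, and Aldh3a1 787.6 and 10050 TPM. Krt5 and Pax6 were lower by smaller factors. Schwann cell markers, of the glia that wrap the nerves, were lower in 3 of 5 tested (71.1 to 101.9 TPM with L-733,060, 102.0 to 125.0 TPM in controls). Mbp made up most of that sum, with a mean of 52.6 TPM with L-733,060 and 69.3 TPM in controls. S100b and Ngfr were not called, and Sox10 had too few counts to test. Of 4 tested neuron markers 1 was higher and 1 lower. Smooth muscle and pericyte markers were higher in 3 of 6 and lower in 1 (122.6 to 194.1 TPM with L-733,060, 29.9 to 33.9 TPM in controls). Acta2 (mean 107.3 TPM with L-733,060, 8.96 TPM in controls) and Tagln (46.2 and 16.5 TPM) made up most of that sum. Myh11 was the marker called lower (log2 fold change -0.96, edgeR adjusted p = 0.021). Keratocyte and fibroblast markers were higher in 4 of 7 and lower in 3, with a lower sum (906.4 to 1324 TPM with L-733,060, 1923 to 2844 TPM in controls). Of 8 blood endothelial markers 3 were higher and 2 lower, and of 5 lymphatic markers 1 was higher. Lymphocyte markers were higher in 3 of 3 tested and melanocyte markers lower in 2 of 4, and none of the tested retina (4) or skeletal muscle (1) markers was called. None of the defining markers in these lists was at 0 in every sample. In whole tissue, fewer cells of a type and less RNA per cell cannot be told apart, and the part of these differences in the results below was not tested.

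Promoter windows of the 4 genes with the largest called changes of the set are given here, because Epha7, Efna3, Epha3 and Unc5a carry the contrasts described next. The windows run from 250 bases before to 50 bases after an annotated start (RefSeq, GRCm38.p6) and are written 5′ to 3′ on the gene's strand. Capitals mark the letters GGGCGG or its reverse complement (GC box), or GGAATG or its reverse complement (TEAD motif).

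Epha7 (chr4:28812895-28813194, plus strand): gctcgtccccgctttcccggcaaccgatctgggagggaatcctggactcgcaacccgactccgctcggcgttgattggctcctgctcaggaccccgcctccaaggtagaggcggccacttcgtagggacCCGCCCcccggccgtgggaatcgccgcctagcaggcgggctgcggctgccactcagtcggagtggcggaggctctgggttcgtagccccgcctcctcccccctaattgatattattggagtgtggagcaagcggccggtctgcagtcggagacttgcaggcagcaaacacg

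Epha3 (chr16:63864126-63864425, minus strand): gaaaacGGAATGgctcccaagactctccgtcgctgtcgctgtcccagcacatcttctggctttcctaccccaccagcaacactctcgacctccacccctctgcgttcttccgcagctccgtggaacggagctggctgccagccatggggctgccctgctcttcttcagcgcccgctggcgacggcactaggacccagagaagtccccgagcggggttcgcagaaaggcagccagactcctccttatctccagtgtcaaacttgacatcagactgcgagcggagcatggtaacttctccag

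Efna3 (chr3:89322890-89323189, minus strand): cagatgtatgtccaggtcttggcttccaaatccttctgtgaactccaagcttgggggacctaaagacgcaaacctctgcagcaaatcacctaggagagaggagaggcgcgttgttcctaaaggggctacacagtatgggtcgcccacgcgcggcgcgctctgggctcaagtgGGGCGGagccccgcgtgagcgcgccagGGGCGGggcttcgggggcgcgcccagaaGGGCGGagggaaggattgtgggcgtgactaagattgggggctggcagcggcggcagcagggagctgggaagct

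Unc5a (chr13:54949161-54949460, plus strand): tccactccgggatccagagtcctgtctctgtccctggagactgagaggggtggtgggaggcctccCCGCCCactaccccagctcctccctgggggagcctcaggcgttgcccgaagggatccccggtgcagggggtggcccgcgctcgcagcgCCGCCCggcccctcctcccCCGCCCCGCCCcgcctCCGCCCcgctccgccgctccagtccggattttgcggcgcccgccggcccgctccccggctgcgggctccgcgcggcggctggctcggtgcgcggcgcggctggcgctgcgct

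The Efna3 window holds 3 GC boxes and the Unc5a window, 1 of that gene's annotated starts, holds 5; the Epha7 window holds 1, and the Epha3 window holds none but 1 TEAD motif. Windows were found for 58 of the 69 genes, 76 windows in all. A GC box was present in 12 of 19 windows of the genes called higher (63.2%), in 19 of 25 windows of those called lower (76.0%) and in 18 of 23 windows of those not called (78.3%), against 57.2% of the windows of all tested genes and 35.7% of all windows in the table. Both strands were searched, and the other motifs were AP-1 (TGANTCA), an E-box (CACGTG) and a TATA box (TATAAA). The TEAD motif was in 2 of 19 windows of the higher genes, 2 of 25 of the lower ones and 5 of 23 of those not called (21.7%), against 12.8% of the windows of all tested genes. The AP-1 motif was in 1 window of each of these 3 sets, against 5.90% over all tested genes. In the same order of sets, the E-box was in 2 of 19, 1 of 25 and 1 of 23 windows (9.18% over all tested genes). The TATA box was in 1 of 19, 0 of 25 and 3 of 23 (8.02% over all tested genes). These matches are letters in a window and describe no factor.

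Ephrins and their receptors held both ends of the range. No ephrin was called higher and 4 of 8 were called lower (50% called, against 41.3% of all genes, and 19.9% of all genes lower), and the summed ephrin level was lower in every L-733,060 sample (77.0, 60.8 and 94.9 TPM) than in any control (149.8, 112.6 and 127.8 TPM). Of the 10 tested Eph receptors 4 were higher and 2 were lower (60.0% called).

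Efna3 encodes ephrin-A3, a lipid-anchored ligand of the EphA receptors. It was at 1.55, 0.512 and 1.34 TPM in L-733,060 samples 1, 2 and 3, against 19.8, 15.3 and 16.9 TPM in controls 1, 2 and 3. All 3 L-733,060 samples were far below all controls, which made Efna3 15.1-fold lower (log2 fold change -3.92, SE 0.29, edgeR adjusted p = 1.22e-06). Its share of all ephrin TPM was 1.46% with L-733,060 and 13.3% in controls.

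Efna4 encodes another EphA ligand. It was at 17.2, 13.0 and 16.3 TPM with L-733,060 and at 35.3, 28.6 and 27.3 TPM in controls, without overlap (log2 fold change -0.98, SE 0.16, edgeR adjusted p = 0.000504). Efna1 had the highest mean level of the ephrins and was not called: it had 25.5, 18.6 and 31.4 TPM with L-733,060 and 32.7, 22.7 and 27.7 TPM in controls (log2 fold change -0.15, edgeR adjusted p = 0.538). With Efna1 not called, its share of ephrin TPM was 32.5% with L-733,060 and 21.3% in controls.

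Efna1, Efna3 and Efna4 lie side by side on chromosome 3, within 66.3 kb (mm10). The Efna3 gene spans chr3:89313899-89322939 on the minus strand. The other protein-coding genes within 5 kb of this stretch had smaller fold changes than Efna3. Adam15, a membrane metalloprotease, had a log2 fold change of -1.03 (edgeR adjusted p = 0.000322), Slc50a1 one of -0.37 (adjusted p = 0.0358) and Dpm3 one of -0.40 (adjusted p = 0.112). Efna3 shares 14.1% of its exon bases (GENCODE M21) with the antisense gene Gm15998, and Efna4 shares 10.5% with another antisense gene. Whether counting used strand was not given, so reads of such pairs cannot be told apart; Gm15998 itself had 1 count over the L-733,060 samples and 18 over the controls.

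Among the B ephrins, which span the membrane, 2 of 3 were lower, against 19.9% of all tested genes. Efnb1 (ephrin-B1) was at 9.78, 7.42 and 15.8 TPM with L-733,060 and 33.8, 21.4 and 28.3 TPM in controls. The groups did not overlap, with sample 3 the highest of the L-733,060 samples (log2 fold change -1.36, SE 0.22, edgeR adjusted p = 0.000495). Efnb3 (ephrin-B3) was scarce, at 0.216, 0.166 and 0.272 TPM with L-733,060 and 0.348, 0.644 and 0.494 TPM in controls. It was called lower (log2 fold change -1.20, SE 0.42, edgeR adjusted p = 0.0372), but not without L-733,060 sample 1 (adjusted p = 0.0943) or 2 (0.114), or without control 2 (0.149) or 3 (0.0784), nor on all 6 samples with DESeq2 (0.0767) or limma-voom (0.0532). Efnb2, an arterial ephrin in vessels, was not called (log2 fold change -0.29, edgeR adjusted p = 0.180), and was called lower without L-733,060 sample 3 (-0.54, adjusted p = 0.00157). Efna2 and Efna5 had log2 fold changes of 0.12 and 0.15, neither called.

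Among the EphA receptors, which mostly bind the A ephrins, 3 of 5 tested were higher and none was lower. Of all tested genes 21.4% were higher and 19.9% lower. Their summed level overlapped between groups, at 224.0, 239.0 and 288.7 TPM with L-733,060 and 248.7, 190.5 and 210.0 TPM in controls. Epha7 was at 6.69, 5.85 and 6.70 TPM with L-733,060 and at 0.366, 0.252 and 0.246 TPM in controls. It was low in every control and alike in all L-733,060 samples, a 22.1-fold difference (log2 fold change 4.47, SE 0.20, edgeR adjusted p = 5.38e-08). Its share of all Eph receptor TPM stayed small, 1.87% with L-733,060 and 0.0804% in controls.

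Epha3 moved the same way from a lower level. It had 1.05, 0.490 and 1.57 TPM with L-733,060 and 0.0528, 0.179 and 0.0955 TPM in controls. The groups did not overlap, with sample 2 the lowest of the L-733,060 samples (9.10-fold, log2 fold change 3.19, SE 0.51, edgeR adjusted p = 0.000429). Its control level rests on 20 counts over 3 samples, and the L-733,060 level on 177.

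Epha4, which binds both kinds of ephrin, was at 56.6, 74.7 and 62.4 TPM with L-733,060 and 49.8, 50.3 and 48.2 TPM in controls, a difference of 1.29-fold (log2 fold change 0.37, SE 0.13, edgeR adjusted p = 0.0386). That call was lost without L-733,060 sample 2 (adjusted p = 0.160) and without control 1 (0.116), 2 (0.0602) or 3 (0.138). Epha1 (0.24, edgeR adjusted p = 0.209) and Epha2 (-0.05, adjusted p = 0.789), 2 abundant epithelial receptors, were not called. Epha1 averaged 90.6 TPM with L-733,060 and 76.1 TPM in controls, and Epha2 averaged 87.9 TPM with L-733,060 and 90.3 TPM in controls.

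The EphB receptors bind mainly the B ephrins. Their summed level was 81.1, 82.9 and 113.6 TPM with L-733,060 and 152.9, 125.0 and 147.4 TPM in controls, with no overlap. Ephb3 made up most of it and had the highest mean of all Eph receptors: 64.4, 68.6 and 88.2 TPM with L-733,060 and 126.9, 107.1 and 122.5 TPM in controls. It was 1.63-fold lower (log2 fold change -0.71, SE 0.12, edgeR adjusted p = 0.000671). Ephb6, whose kinase domain is inactive, was also lower, at 5.60, 5.65 and 8.37 TPM with L-733,060 and 14.7, 9.34 and 12.2 TPM in controls (log2 fold change -0.90, SE 0.17, edgeR adjusted p = 0.00144).

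Ephb2 went the other way within the same family. It had 2.45, 2.25 and 3.82 TPM with L-733,060 and 1.37, 0.846 and 1.55 TPM in controls, without overlap (2.23-fold, log2 fold change 1.16, SE 0.23, edgeR adjusted p = 0.00193). Ephb4, the vascular partner of ephrin-B2, had a log2 fold change of 0.02 (edgeR adjusted p = 0.952).

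Ephb1 lay closest outside the threshold. Its TPM was 0.518, 0.0716 and 0.320 with L-733,060 and 0.857, 0.635 and 0.659 in controls. Every L-733,060 sample was below every control, but they spread widely, and Ephb1 was not called (log2 fold change -1.21, SE 0.48, edgeR adjusted p = 0.0618). It was called lower on all 6 samples with DESeq2 (adjusted p = 0.0462), with limma-voom (0.0329) and in edgeR with no filter on low counts (0.00815), and in edgeR without L-733,060 sample 1 (log2 fold change -1.88, adjusted p = 0.0167). Epha5, Epha6, Epha8 and Epha10 had too few counts to test. Epha8 had 1 count over the L-733,060 samples and 18 over the controls, a depth-scaled ratio of 0.0618 with a 95% exact interval of 0.00148 to 0.392 that covers counting error only. L-733,060 sample 2 and control 1 had 1 count each, so the groups met.

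**Figure D2:**
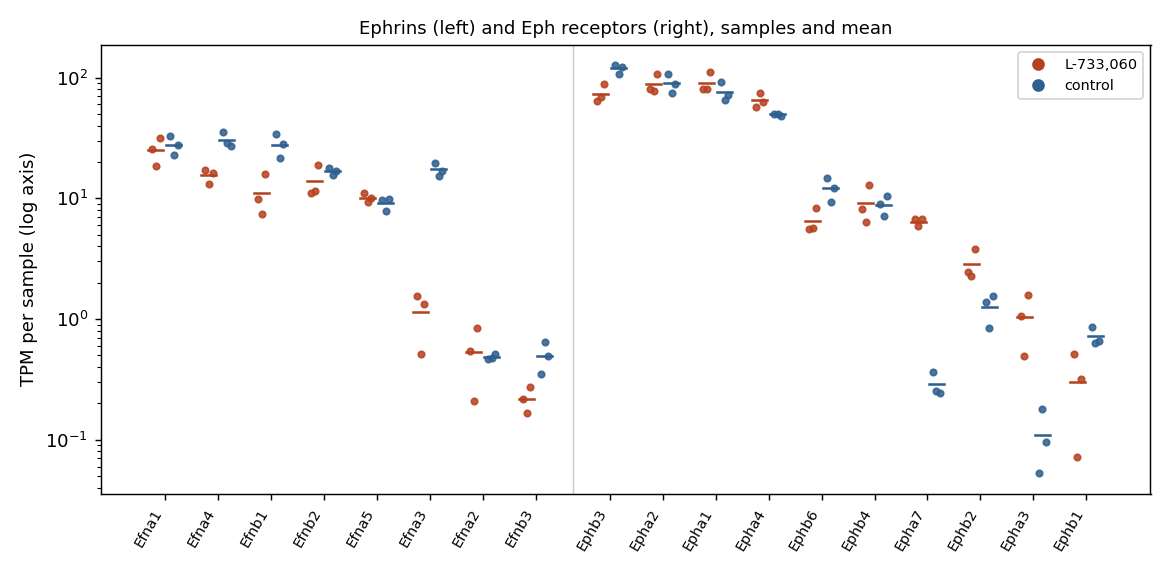
TPM of the tested ephrin (left) and Eph receptor (right) genes, on a log axis; points are samples, L-733,060 left of control in each gene, and lines are group means. Epha7 and Epha3 lie higher in all L-733,060 samples, and Efna3, Efna4, Efnb1, Ephb3 and Ephb6 lie lower.

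Semaphorins changed in both directions: of 18 tested, 6 were higher and 7 were lower (72.2% called, against 41.3% of all genes). Without control 1 only 3 were called higher. Of the 7 class 3 semaphorins, which are secreted, 4 were higher and 2 were lower; of the 5 tested class 4 semaphorins, which span the membrane, none was higher and 4 were lower, a difference between classes that was not tested. The summed class 3 level was 53.0, 59.8 and 82.0 TPM with L-733,060 and 68.1, 59.3 and 71.7 TPM in controls, which overlap. The summed class 4 level was 56.3, 56.9 and 90.1 TPM with L-733,060 and 135.3, 92.9 and 111.9 TPM in controls, without overlap.

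Sema7a, a lipid-anchored semaphorin that binds plexin C1 and integrins, had the largest increase of the family. It had 1.26, 1.60 and 2.47 TPM with L-733,060 and 0.333, 0.333 and 0.441 TPM in controls, so every L-733,060 sample was above every control (4.69-fold, log2 fold change 2.23, SE 0.32, edgeR adjusted p = 0.000184). Its receptor gene Plxnc1 was higher as well, at 0.458, 0.417 and 0.335 TPM with L-733,060 and 0.187, 0.173 and 0.192 TPM in controls (log2 fold change 1.12, SE 0.32, edgeR adjusted p = 0.0158). That call was lost without L-733,060 sample 1 (adjusted p = 0.0792) and without control 1 (0.0534) or 2 (0.0529).

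Among class 3 genes, Sema3g had 0.670, 1.18 and 0.668 TPM with L-733,060 and 0.217, 0.181 and 0.216 TPM in controls. Sample 2 was the highest and no L-733,060 sample reached down to the controls (4.02-fold, log2 fold change 2.01, SE 0.37, edgeR adjusted p = 0.00119). Sema3c, the more abundant of the pair, was at 14.2, 15.2 and 12.2 TPM with L-733,060 and 6.04, 7.68 and 7.38 TPM in controls (1.96-fold, log2 fold change 0.97, SE 0.16, edgeR adjusted p = 0.000612). Both are secreted ligands that act through neuropilins.

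Sema3e, which binds plexin D1 without a neuropilin, lay closest inside the threshold. It had 0.507, 0.308 and 0.391 TPM with L-733,060 and 0.117, 0.230 and 0.224 TPM in controls (log2 fold change 1.06, SE 0.39, edgeR adjusted p = 0.0466). No value overlapped between groups, but leaving out L-733,060 sample 1 or 3 or any 1 control ended the call (adjusted p = 0.0541 to 0.199), and DESeq2 did not call it on all 6 samples (0.0727). Sema3d was called higher although the groups overlapped: 8.62, 18.1 and 14.7 TPM with L-733,060 and 9.33, 9.61 and 7.61 TPM in controls (log2 fold change 0.62, SE 0.22, edgeR adjusted p = 0.0398). Its call was lost without L-733,060 sample 2 (0.36, adjusted p = 0.172), control 1 (adjusted p = 0.106) or control 3 (0.149), and with limma-voom on all 6 samples (0.0590).

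Sema3b and Sema3a were the class 3 genes that were lower. Sema3b had 1.27, 0.934 and 1.31 TPM with L-733,060 and 3.56, 3.28 and 3.57 TPM in controls, well apart and narrow in both groups (2.98-fold lower, log2 fold change -1.57, SE 0.20, edgeR adjusted p = 9.07e-05). Sema3a, a repellent of sensory axons, had 1.45, 1.74 and 1.58 TPM with L-733,060 and 1.86, 2.49 and 2.92 TPM in controls (log2 fold change -0.63, SE 0.20, edgeR adjusted p = 0.0279). Its call was lost without L-733,060 sample 1 (adjusted p = 0.0855) or control 2 (0.0725) or 3 (0.123).

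Sema3f, the most abundant class 3 gene, was not called, with 26.2, 22.3 and 51.2 TPM with L-733,060 and 47.0, 35.9 and 49.8 TPM in controls (log2 fold change -0.44, edgeR adjusted p = 0.153). Sample 3 was above all controls, while samples 1 and 2 were below them. Without sample 3 Sema3f was called lower (-0.84, adjusted p = 0.000105), as it was on all 6 samples with no filter on low counts (edgeR adjusted p = 0.00617).

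The class 4 genes Sema4a and Sema4b were both lower by a similar factor. Sema4a, a membrane semaphorin also studied in immune cells, had 10.6, 9.89 and 17.9 TPM with L-733,060 and 33.1, 22.4 and 25.7 TPM in controls (log2 fold change -1.10, SE 0.19, edgeR adjusted p = 0.000775). Sema4b had 11.8, 10.2 and 18.9 TPM with L-733,060 and 37.1, 21.1 and 26.1 TPM in controls (log2 fold change -1.06, SE 0.21, edgeR adjusted p = 0.00204). In both genes sample 3 was the highest of the L-733,060 samples and still below every control.

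Sema4d, the ligand of plexin B1, had the highest mean level of all semaphorins. It had 28.6, 33.3 and 46.24 TPM with L-733,060 and 59.8, 46.23 and 55.0 TPM in controls, so that sample 3 and control 2 met (log2 fold change -0.60, SE 0.15, edgeR adjusted p = 0.00679). Sema4g was scarce, at 0.266, 0.123 and 0.256 TPM with L-733,060 and 0.386, 0.459 and 0.814 TPM in controls (log2 fold change -1.36, SE 0.42, edgeR adjusted p = 0.0216). Its call was lost without L-733,060 sample 2 (adjusted p = 0.0774) or control 3 (0.115). Sema4c was not called (0.34, edgeR adjusted p = 0.281), and was called higher without L-733,060 sample 2 (0.56, adjusted p = 0.0468).

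Sema5a, a membrane semaphorin with thrombospondin repeats, had 2.78, 2.20 and 3.40 TPM with L-733,060 and 8.62, 6.25 and 8.95 TPM in controls. The groups were well apart (2.86-fold lower, log2 fold change -1.52, SE 0.17, edgeR adjusted p = 2.66e-05). Among the class 6 genes, membrane ligands of the A-type plexins, Sema6b was higher at 1.28, 1.30 and 1.99 TPM with L-733,060 and 0.717, 0.804 and 0.982 TPM in controls (log2 fold change 0.84, SE 0.26, edgeR adjusted p = 0.0214). That call was lost without L-733,060 sample 3 (adjusted p = 0.0817) and without control 1 (0.0836) or 2 (0.0614). Sema6a (-0.01), Sema6c (-0.86) and Sema6d (0.33) were not called. Sema6c was called lower without L-733,060 sample 3 (log2 fold change -1.48, edgeR adjusted p = 0.00493) and, on all 6 samples, with no filter (adjusted p = 0.0271). Sema4f and Sema5b had too few counts to test.

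**Figure D3:**
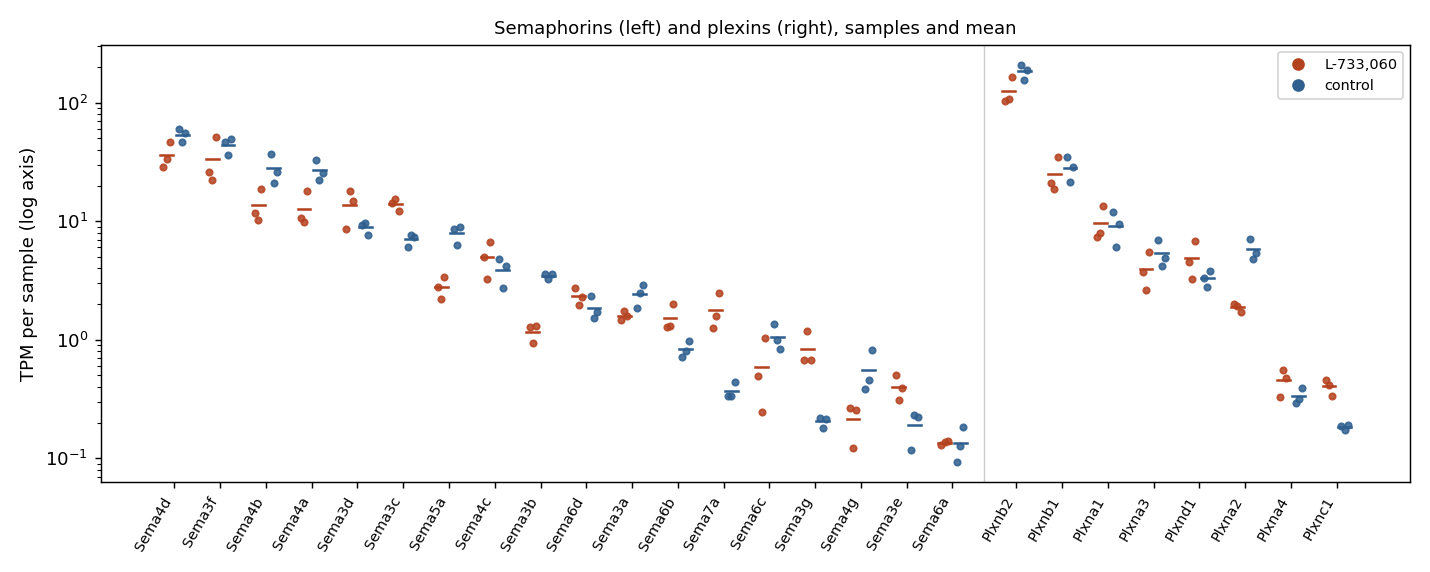
TPM of the tested semaphorin (left) and plexin (right) genes, on a log axis; points are samples, L-733,060 left of control in each gene, and lines are group means. Sema7a, Sema3g and Sema3c are higher in all L-733,060 samples; Sema3b, Sema5a, Sema4a, Sema4b and Plxna2 are lower in all of them.

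Plexins are the signalling receptors of the semaphorins; of 8 tested, 1 was higher, 2 were lower and 5 were not called, so 37.5% were called, against 41.3% of all genes. The count turned on single samples: 0 were higher without L-733,060 sample 1, control 1 or control 2, and 2 without L-733,060 sample 2. For the lower calls, 1 was left without L-733,060 sample 1 or control 1, and 4 were made without L-733,060 sample 3. Their summed level, 143.1, 143.2 and 228.4 TPM with L-733,060 and 274.8, 196.0 and 242.2 TPM in controls, overlapped between groups.

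Plxna2, a receptor for class 6 and, with neuropilins, class 3 semaphorins, had 1.99, 1.94 and 1.71 TPM with L-733,060 and 7.08, 4.82 and 5.43 TPM in controls. All L-733,060 samples were alike and low (3.08-fold lower, log2 fold change -1.62, SE 0.16, edgeR adjusted p = 1.48e-05). Plxnb2, which made up 73.2% of plexin TPM with L-733,060 and 77.9% in controls, had 103.6, 107.7 and 165.5 TPM with L-733,060 and 209.9, 156.2 and 189.6 TPM in controls. Plexin B2 is a receptor of class 4 semaphorins; sample 3 was above control 2, and the gene was called lower (log2 fold change -0.58, SE 0.16, edgeR adjusted p = 0.0120). Without L-733,060 sample 1 or without control 1 it was not called (adjusted p = 0.0571 and 0.0545).

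Plxnd1, the receptor of Sema3e, was not called (log2 fold change 0.54, edgeR adjusted p = 0.0725) and was called higher without L-733,060 sample 2 (0.75, adjusted p = 0.00722) and, on all 6 samples, with DESeq2 (adjusted p = 0.0488) and with no filter in edgeR (0.0179). Plxnb1, the receptor of Sema4d, was not called (-0.21, edgeR adjusted p = 0.430) and was called lower without L-733,060 sample 3 (-0.48, adjusted p = 0.0161). Plxna3 did the same (-0.45, edgeR adjusted p = 0.138; -0.73 without sample 3, adjusted p = 0.00632), and it was also called lower on all 6 samples with no filter (adjusted p = 0.0230). Plxna1 (0.06) and Plxna4 (0.42) were not called, and Plxnb3 had too few counts to test. Plxna1 shares 10.7% of its exon bases with an antisense gene. Elsewhere in the set, Epha1 shares 6.01% with the protein-coding gene Zyx and Ntn5 23.4% with the protein-coding gene Sec1. Sema4c shares 7.27% with a noncoding gene. All lie on opposite strands, so their reads cannot be told apart either if counting ignored strand.

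All 3 tested netrins were called lower, against 19.9% of all tested genes, though the call of Ntn3 was lost with other tools. Netrins are secreted, laminin-related proteins, and netrin-4 is a component of basement membranes. The summed level was 9.89, 12.9 and 18.8 TPM with L-733,060 and 34.7, 28.7 and 32.5 TPM in controls, without overlap.

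Ntn4 was the most abundant netrin, at 8.74, 11.6 and 17.2 TPM with L-733,060 and 30.5, 25.0 and 28.1 TPM in controls (2.26-fold lower, log2 fold change -1.18, SE 0.19, edgeR adjusted p = 0.000387). Ntn1, the founding axon attractant and repellent, had 0.960, 1.09 and 1.32 TPM with L-733,060 and 3.87, 3.21 and 3.75 TPM in controls (3.25-fold lower, log2 fold change -1.70, SE 0.18, edgeR adjusted p = 2.32e-05). In both genes sample 3 was the highest of the L-733,060 samples and below every control.

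Ntn3 was scarce, with 0.197, 0.204 and 0.223 TPM with L-733,060 and 0.285, 0.434 and 0.682 TPM in controls (log2 fold change -1.18, SE 0.41, edgeR adjusted p = 0.0384). Leaving out any 1 L-733,060 sample, control 2 or control 3 ended its call (adjusted p = 0.0611 to 0.190), and on all 6 samples it was not called with DESeq2 (0.0679) or limma-voom (0.0670). Ntn5 had 2 counts over the L-733,060 samples and 3 over the controls and was not tested.

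Among the netrin receptors, Unc5a and Unc5b moved in opposite directions. Unc5 receptors mediate repulsion by netrins and can also trigger cell death when netrin is absent. Unc5a had 2.43, 2.05 and 5.15 TPM with L-733,060 and 18.3, 11.04 and 15.3 TPM in controls. The highest L-733,060 sample, sample 3, was below the lowest control (4.69-fold lower, log2 fold change -2.23, SE 0.27, edgeR adjusted p = 5.89e-05).

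Unc5b, a receptor also known from vessels, had 7.13, 8.99 and 12.9 TPM with L-733,060 and 6.70, 6.16 and 6.91 TPM in controls (log2 fold change 0.53, SE 0.17, edgeR adjusted p = 0.0279). Sample 1 was only just above the controls, and the call was lost without L-733,060 sample 3 (adjusted p = 0.104) and without control 1 (0.0893), 2 (0.0841) or 3 (0.0703). Unc5a made up 23.9% of netrin receptor TPM with L-733,060 and 67.5% in controls, and Unc5b 72.1% with L-733,060 and 29.9% in controls. Unc5c was not called (-0.19, edgeR adjusted p = 0.664). Dcc, the attractive netrin receptor, had 8 counts over the L-733,060 samples and 4 over the controls, and Unc5d had 3 and 3, too few to test.

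**Figure D4:**
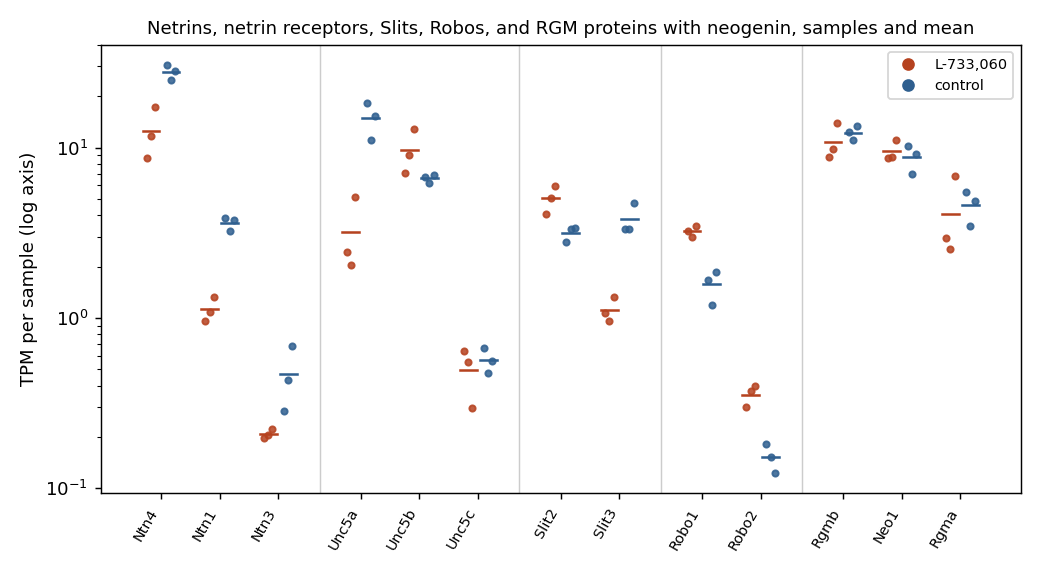
TPM of the tested netrin, netrin receptor, Slit, Robo, RGM and neogenin genes, on a log axis; points are samples, L-733,060 left of control in each gene, and lines are group means. Ntn1, Ntn4, Unc5a and Slit3 are lower in all L-733,060 samples, and Slit2, Robo1 and Robo2 are higher.

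Slit2 and Slit3, secreted repellents read by Robos, also moved apart. Slit2 had 4.05, 5.04 and 5.98 TPM with L-733,060 and 2.77, 3.32 and 3.36 TPM in controls, without overlap (1.56-fold, log2 fold change 0.65, SE 0.16, edgeR adjusted p = 0.00578). Slit3 had 1.06, 0.958 and 1.33 TPM with L-733,060 and 3.30, 3.34 and 4.71 TPM in controls (3.41-fold lower, log2 fold change -1.77, SE 0.22, edgeR adjusted p = 5.86e-05). Slit2 made up 80.6% of Slit TPM with L-733,060 and 44.6% in controls, and Slit3 17.9% with L-733,060 and 53.6% in controls. Slit1 had 21 counts over the L-733,060 samples and 33 over the controls and was not tested.

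Both tested Slit receptors were higher, against 21.4% of all tested genes. Robo1 had 3.25, 2.99 and 3.47 TPM with L-733,060 and 1.67, 1.19 and 1.87 TPM in controls, and all L-733,060 samples were above all controls (2.04-fold, log2 fold change 1.03, SE 0.17, edgeR adjusted p = 0.000593). Robo2 was lower in level, at 0.298, 0.370 and 0.396 TPM with L-733,060 and 0.183, 0.152 and 0.123 TPM in controls (2.30-fold, log2 fold change 1.20, SE 0.25, edgeR adjusted p = 0.00240). Robo3, which had 10 counts over the L-733,060 samples and 4 over the controls, was not tested.

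None of the RGM genes or their receptor was called. Rgmb, which also acts as a co-receptor for bone morphogenetic proteins, had the highest level, at 8.79, 9.80 and 13.9 TPM with L-733,060 and 12.4, 11.04 and 13.3 TPM in controls (log2 fold change -0.20, edgeR adjusted p = 0.304). Rgma had a log2 fold change of -0.19 (edgeR adjusted p = 0.643) and the receptor Neo1 one of 0.11 (adjusted p = 0.569). Without L-733,060 sample 3, which was the highest of its group in both RGM genes, Rgma (-0.72, adjusted p = 0.0135) and Rgmb (-0.38, adjusted p = 0.0282) were called lower.

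**Figure D5:**
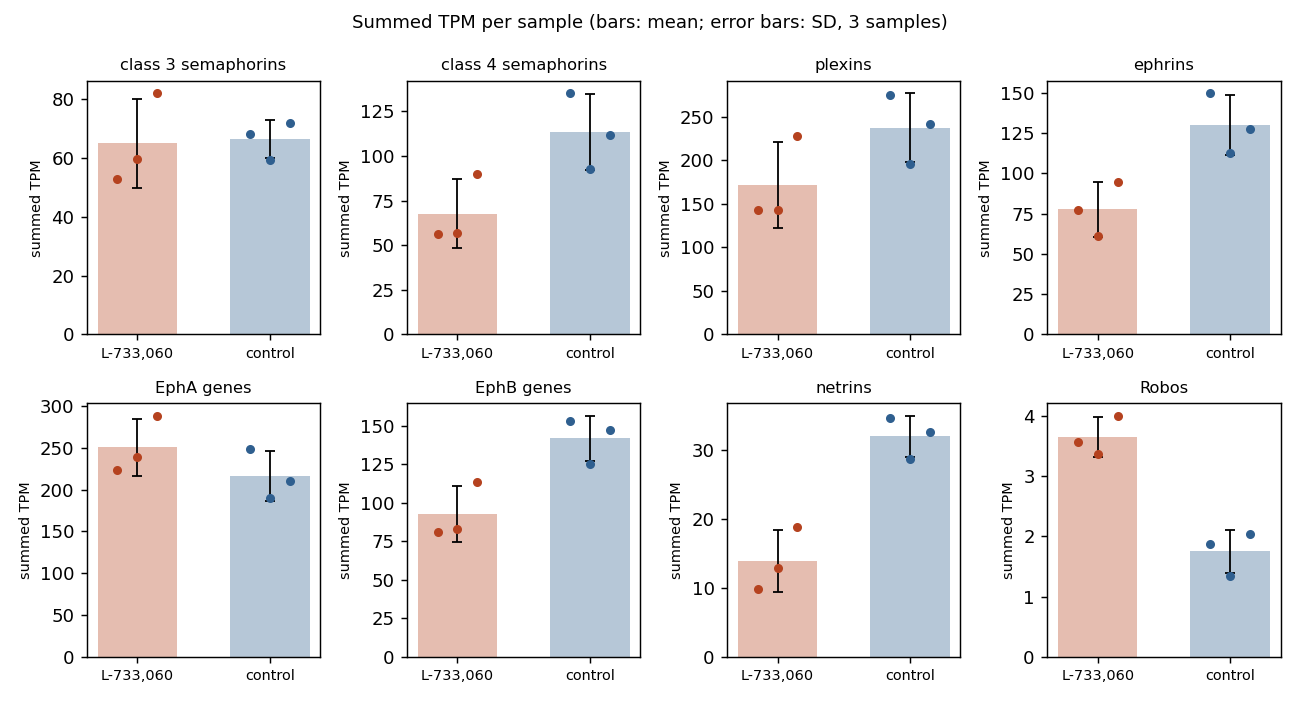
Summed TPM of 8 classes of axon guidance genes, L-733,060 left of control; points are samples, bars are means and error bars are SD (n = 3 each). Ephrins, EphB receptors, class 4 semaphorins and netrins are lower in all L-733,060 samples, Robos are higher in all of them, and plexins, EphA receptors and class 3 semaphorins overlap.

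A list of 81 further genes of the same pathways held 76 tested genes, of which 22 were higher and 22 lower (57.9%, against 41.3% of all genes), with a median log2 fold change of 0.03. Co-receptors and cofactors were higher in 8 and lower in 5 of 18. Cytoplasmic effectors were higher in 12 and lower in 16 of 52, and regulators of ligand shedding or phosphorylation were higher in 2 and lower in 1 of 6. Hjv, a relative of the RGM proteins, was at 0 in all samples.

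Among the co-receptors, Flrt2 and Flrt3 encode membrane proteins that bind Unc5 receptors. Flrt2 had 24.8, 34.4 and 30.3 TPM with L-733,060 and 5.97, 4.78 and 3.71 TPM in controls (6.12-fold, log2 fold change 2.61, edgeR adjusted p = 7.34e-07). Flrt3 had 6.73, 6.70 and 5.72 TPM with L-733,060 and 1.499, 2.04 and 1.79 TPM in controls (log2 fold change 1.83, edgeR adjusted p = 2.81e-05). Sdc1, a heparan sulphate proteoglycan of epithelia, was lower, at 452.5, 465.0 and 602.0 TPM with L-733,060 and 928.2, 747.3 and 803.2 TPM in controls (log2 fold change -0.72, edgeR adjusted p = 0.000879). The groups did not overlap in these 3 genes. Flrt1, a scarcer relative of Flrt2 and Flrt3, went the other way and is named only after its values were seen. It averaged 0.184 TPM under L-733,060, against 0.471 TPM for controls, again without overlap. In edgeR it was called lower at an adjusted p of 0.0122, its log2 fold change being -1.35.

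The neuropilins, co-receptors of class 3 semaphorins, are named here after their values were seen. Nrp1 had 8.72, 7.52 and 10.2 TPM with L-733,060 and 3.01, 3.504 and 4.79 TPM in controls (log2 fold change 1.21, SE 0.18, edgeR adjusted p = 0.000222). Nrp2 had 5.25, 5.14 and 6.48 TPM with L-733,060 and 3.35, 3.73 and 3.52 TPM in controls (log2 fold change 0.65, SE 0.14, edgeR adjusted p = 0.00359). Both were higher in every L-733,060 sample than in any control.

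Draxin, which encodes a secreted partner of netrins and Dcc, was below the 1 CPM mean set for naming genes of this list and is named after its values were seen. It had 26, 35 and 10 counts in L-733,060 samples 1, 2 and 3 and 0 counts in every control, and was called higher (edgeR adjusted p = 0.000628).

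Effectors that act on the actin cytoskeleton were called in both directions. Ablim3, an actin-binding LIM protein, had a log2 fold change of 3.48 (edgeR adjusted p = 9.93e-07), with 4.58, 4.82 and 6.79 TPM with L-733,060 and 0.630, 0.452 and 0.349 TPM in controls. Its relative Ablim1 was lower, with 79.3, 86.9 and 95.8 TPM with L-733,060 and 144.6, 127.0 and 133.8 TPM in controls (-0.65, edgeR adjusted p = 0.00075). Enah, which promotes filament growth downstream of netrin and Robo receptors, was higher (1.76, edgeR adjusted p = 2.42e-06), as was Fes, a tyrosine kinase linked to plexin A signalling (1.91, adjusted p = 3.16e-05). Cfl1, the actin-severing protein cofilin, was higher (2.63, edgeR adjusted p = 2.57e-07), but it has near-identical pseudogene copies, so its value is uncertain.

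Ngef, the exchange factor ephexin that works downstream of EphA4, was 5.50-fold lower, with 2.43, 1.48 and 2.73 TPM with L-733,060 and 13.9, 10.5 and 12.0 TPM in controls (log2 fold change -2.46, edgeR adjusted p = 4.40e-06). Dock1, an activator of Rac downstream of netrin receptors, had a log2 fold change of -1.02 (edgeR adjusted p = 0.000334). The small GTPase gene Rhod had one of -0.87 (adjusted p = 9.15e-05), and Srgap3, a GTPase-activating protein of the Slit and Robo pathway, one of -0.91 (adjusted p = 0.00131). All 4 genes had every L-733,060 sample below every control.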

How the data were processed

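The submitters' processing notes name bcl2fastq, HISAT2 2.1.0, HTSeq 0.11.2 and the build mm10. Annotation and strand setting: not given in the sources used here. Raw counts per gene for 6 samples were deposited, with TPM computed by the authors, which equalled length-scaled counts brought to a fixed total (largest difference 4.96e-06). From the counts, edgeR 4.0.16 (R 4.3.3; TMM, filterByExpr with a minimum count of 10 and a minimum total of 15, quasi-likelihood F test, Benjamini-Hochberg, threshold 0.05) tested 15712 genes; 23377 were removed. The procedure was tested on simulated data. No sample was left out of this fit, and no batch was named. Alternatives were DESeq2 1.42.0, limma 3.58.1 voom, other scalings and filters, the replicate number as a block and leaving out each sample. The members and lists were chosen with earlier results of these data known. Genes named with values in every sample were those called with an absolute log2 fold change of at least 1 and no overlap, the highest of each class, and those nearest the threshold; values in every sample of 9 further members (Efna4, Epha4, Ephb6, Sema3a, Sema3c, Sema3d, Sema3f, Sema6b and Unc5b) were added after they were seen; up to 6 other pathway genes per direction were named by smallest p at 1 CPM or more. Promoters and positions came from RefSeq GRCm38.p6 (all 69 genes at the same position) and exon overlaps from GENCODE M21.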

Additional observations from a re-analysis of the deposited data

How the results depend on the processing

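No called gene was reversed under any alternative run. Of the 35 called genes, 24 kept call and direction under every alternative and 11 lost the call at least once; 10 of the genes not called gained one at least once. The labels do not say whether equal replicate numbers pair samples, and so few samples cannot settle it. Same-numbered samples had deviations correlated at -0.0224, 0.273 and 0.133, and differently numbered ones at -0.296 to 0.163. Not every sample correlated best with its own number. The fit with the replicate number as a block called 15 members higher and 22 lower, and 3609 and 3462 of all genes. Called plexins numbered 2 higher with the replicate block, with DESeq2 and with no filter, against 1; 4 Eph receptors were lower with no filter, against 2. With 1 sample left out, members called higher numbered 9 to 15 and lower 16 to 26, semaphorins higher 3 to 6, plexins higher 0 to 2 and plexins lower 1 to 4 (control 1 gave the lowest of the higher counts, and L-733,060 sample 3 the highest of the lower counts), and the median log2 fold change of the members lay between -0.32 and -0.03. Over all tested genes, leaving out 1 sample gave 2677 to 3722 called higher and 2354 to 3788 called lower. The cause of these shifts was not tested. Epha8 and Dcc had too few counts to test at this depth.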

Other observations

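Several of these genes lie near each other: 11 pairs of neighbours were within 1 Mb, and in 4 of them both genes were called. With 61.4% of the tested genes of the set called, against 41.3% of all genes, this count says nothing about neighbours. The pairs of Ephb2 with Epha8 and of Plxnb3 with Plxna3 each held a gene that was not tested. Robo1 and Robo2 on chromosome 16 were both higher with L-733,060 (log2 fold changes of 1.03 and 1.20), and Efna3 and Efna4 on chromosome 3 were both lower (-3.92 and -0.98). On chromosome 5, Sema3a was lower (-0.63) between Sema3d (0.62) and Sema3e (1.06), which were higher. On chromosome 9, Sema3b was lower (-1.57) and its neighbour Sema3f was not called (-0.44). The noncoding row Plxna4os1, which was left out of the set, had 5 counts over the L-733,060 samples and 1 over the controls.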
